A study of Rattus norvegicus with 12 samples.

Results

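The mevalonate pathway enzymes that lead from acetyl-CoA units to squalene were followed in rat liver as 9 transcripts: Acat2, Aacs, Hmgcs1, Mvk, Pmvk, Mvd, Idi1, Fdps and Fdft1. They were taken by symbol from a deposited table of 40154 genes, all 9 were found, and all 9 were among the 15916 genes with enough counts to be tested. The table covers 12 liver libraries of Sprague Dawley rats, 3 in each of 4 groups. The groups were HFD+SAMC (high fat diet with SAMC), HFD (high fat diet alone), Control+SAMC (normal diet with SAMC) and Control (normal diet alone). SAMC is S-allylmercaptocysteine, an organosulfur compound of aged garlic, and the series asks what it does in a diet model of fatty liver. The labels give no dose, length of feeding, age or sex, and do not say that the samples of a group came from separate animals, so the p-values rest on the variation among these libraries, part of which may be technical. Whole liver was used, so a lower level can be fewer hepatocytes or less RNA per cell, which cannot be told apart here.

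The mevalonate pathway builds isoprenoid units from acetyl-CoA and is the common route to cholesterol, to the side chain of ubiquinone, to dolichol and to the lipid tails of prenylated proteins. Liver is a main site of cholesterol synthesis. When sterols run low in the endoplasmic reticulum, the membrane-bound transcription factor SREBP-2, encoded by Srebf2, is released by proteolysis and turns on the genes of this route together with the LDL receptor gene, and when sterols are plentiful it is held back by the Insig proteins. Acat2 (the cytosolic acetoacetyl-CoA thiolase) and Aacs (which activates acetoacetate in the cytosol) supply acetoacetyl-CoA, and Hmgcs1 adds the next acetyl unit to make HMG-CoA, from which mevalonate is formed. The kinases Mvk and Pmvk and the decarboxylase Mvd turn mevalonate into isopentenyl diphosphate, Idi1 isomerises it, Fdps joins the units into farnesyl diphosphate, and Fdft1 (squalene synthase) joins a pair of farnesyl diphosphates into squalene, the first step given over to sterols.

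Levels are given first in CPM, counts per 1e+06 counts of a library, scaled between libraries by the trimmed mean of M-values. Hmgcs1 had 346, 424 and 269 CPM in the HFD+SAMC libraries, 109.8, 165 and 63.9 CPM in the HFD libraries (replicates 2, 3 and 4), 1704, 1241 and 1371 CPM in the Control+SAMC libraries, and 181, 1644 and 279 CPM in the Control libraries. The 3 Control+SAMC libraries and Control replicate 2 were high, the HFD libraries were low, and Control replicates 1 and 3 lay between the HFD libraries and Control+SAMC libraries. The other members, taken in turn, also had Control replicate 2 far above replicates 1 and 3. Of the enzymes that supply acetoacetyl-CoA, Aacs had 3.87, 10.1 and 3.51 CPM in HFD+SAMC, 1.38, 6.10 and 3.14 CPM in HFD, 93.7, 76.4 and 64.1 CPM in Control+SAMC, and 9.55, 140.1 and 10.03 CPM in Control. Acat2 had 6.76, 11.4 and 7.54 CPM in HFD+SAMC, 3.05, 7.02 and 3.78 CPM in HFD, 37.1, 36.4 and 26.8 CPM in Control+SAMC, and 5.43, 50.3 and 10.7 CPM in Control. HFD replicate 3 lay among the HFD+SAMC libraries for both, so those groups overlapped. Acat2 values are uncertain, because a near-copy on the same chromosome, Acat2l1, was listed with 2.44 to 7.001 CPM and the counting may have split reads between them.

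The kinases that act on mevalonate were expressed at low and steadier levels. Pmvk (phosphomevalonate kinase) had 15.9, 14.1 and 10.3 CPM in HFD+SAMC, 5.02, 5.88 and 5.73 CPM in HFD, 25.1, 23.7 and 21.9 CPM in Control+SAMC, and 8.75, 34.1 and 12.7 CPM in Control. Its HFD, HFD+SAMC and Control+SAMC libraries formed separate ranges, low, middle and high, while its Control libraries reached from between the HFD and HFD+SAMC ranges to above all the others. Mvk (mevalonate kinase) ran from 12.2 to 17.1 CPM in HFD+SAMC, from 6.60 to 9.66 CPM in HFD, from 25.8 to 38.9 CPM in Control+SAMC, and stood at 9.79, 34.1 and 11.3 CPM in Control. Mvd (mevalonate diphosphate decarboxylase) ran from 12.8 to 20.6 CPM in HFD+SAMC, from 5.99 to 14.6 CPM in HFD, from 46.9 to 96.5 CPM in Control+SAMC, and stood at 14.6, 93.4 and 17.6 CPM in Control. For Mvd the HFD+SAMC and HFD libraries overlapped, for Mvk they did not.

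Idi1 (isopentenyl-diphosphate delta-isomerase) had 40.3, 47.2 and 31.7 CPM in HFD+SAMC, 11.9, 15.7 and 3.05 CPM in HFD, 197, 147 and 180.1 CPM in Control+SAMC, and 18.4, 144 and 48.8 CPM in Control. It was the one member for which Control replicate 2 lay below the Control+SAMC range; for the other 8 it lay inside or above it. Fdps (farnesyl diphosphate synthase) had 243, 280.2 and 188 CPM in HFD+SAMC, 96.2, 126 and 65.2 CPM in HFD, 821, 671 and 700.4 CPM in Control+SAMC, and 219, 897 and 329 CPM in Control. In these scaled values the HFD libraries were below all 9 others for Fdps, as they were for Hmgcs1, Mvk, Pmvk and Idi1. Fdft1 had 103, 118 and 79.8 CPM in HFD+SAMC, 40.0, 50.0 and 23.3 CPM in HFD, 408, 271 and 272 CPM in Control+SAMC, and 59.9, 312 and 93.5 CPM in Control. Its HFD libraries too lay below all 9 others, and Control replicate 1 was the nearest to them. Without the scaling between libraries, HFD replicate 3 lay above Control replicate 1 for Hmgcs1, Mvk, Idi1 and Fdft1. Fdps and Pmvk kept the separation without it.

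**Figure D1:**
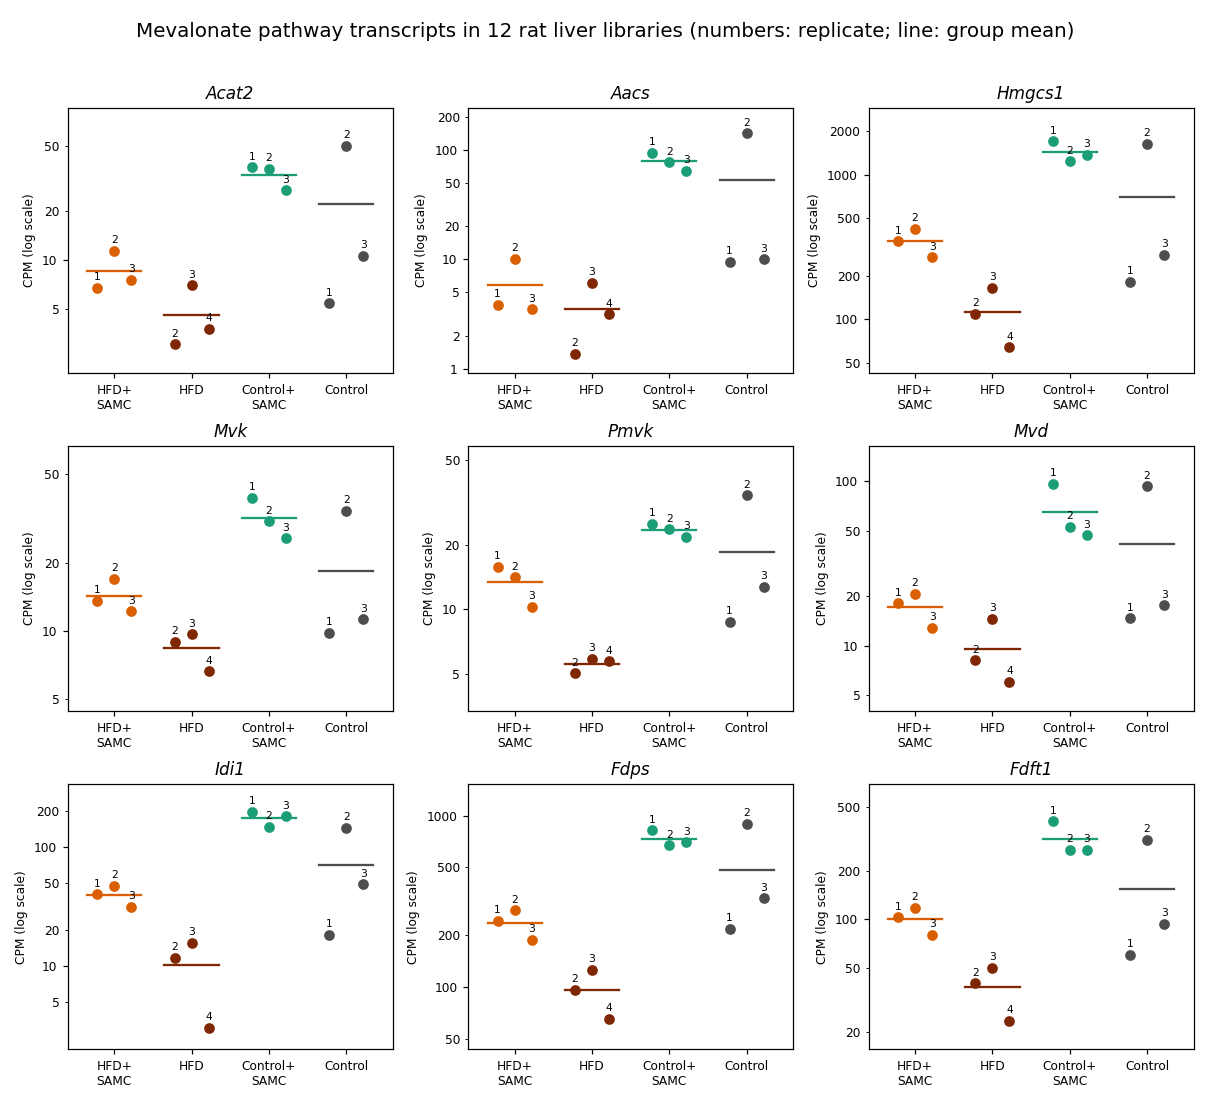
CPM of the 9 transcripts in each library, on a log scale that differs between panels, by group (HFD+SAMC, HFD, Control+SAMC, Control); points are libraries numbered by replicate and lines are group means. In each panel the Control libraries split, with replicate 2 far above replicates 1 and 3. For Fdps all 3 HFD points (65.2 to 126 CPM) lie below the other 9, as they do for Hmgcs1, Mvk, Pmvk, Idi1 and Fdft1. For Hmgcs1, Mvk, Idi1 and Fdft1 the separation from Control replicate 1 rests on the scaling between libraries.

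Summed over the 9 transcripts, the level was 783 ± 164 CPM in HFD+SAMC, 288 ± 110 CPM in HFD, 2894 ± 464 CPM in Control+SAMC and 1563 ± 1554 CPM in Control (SD, n = 3 each). The SD of the Control group was about as large as its mean because its libraries summed to 527, 3349 and 813 CPM. The ratio of the highest to the lowest library within a group ran over the members from 1.40 (Mvk) to 2.88 (Aacs) in HFD+SAMC, from 1.17 (Pmvk) to 5.16 (Idi1) in HFD, from 1.14 (Pmvk) to 2.06 (Mvd) in Control+SAMC, and from 3.48 (Mvk) to 14.7 (Aacs) in Control. Across all 12 libraries the highest CPM exceeded the lowest 101-fold for Aacs and 64.5-fold for Idi1, but 6.79-fold for Pmvk and 5.89-fold for Mvk. The highest library was Control replicate 2 for 4 members and Control+SAMC replicate 1 for 5, and the lowest was HFD replicate 4 for 6 members and HFD replicate 2 for 3.

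To compare members with each other, levels per transcript length (RPKM, CPM per kilobase of transcript before composition scaling) were used. Fdps ranked highest in RPKM, Hmgcs1 next and Fdft1 after it in each of the 12 libraries, and these 3 held 81.2% to 87.0% of the members' summed RPKM. The mean RPKM over all libraries was 291 for Fdps, 178 for Hmgcs1 and 46.8 for Fdft1, against 9.73 for Acat2, 10.2 for Aacs and 10.9 for Mvk. The balance between the leading pair differed between libraries. The RPKM ratio of Hmgcs1 to Fdps was 0.52, 0.55 and 0.52 in HFD+SAMC, 0.41, 0.48 and 0.36 in HFD, 0.75, 0.67 and 0.71 in Control+SAMC, and 0.30, 0.67 and 0.31 in Control. It was highest in the Control+SAMC libraries and Control replicate 2, the 4 libraries with the highest summed level, and lowest in Control replicates 1 and 3. Over the 12 libraries, the 36 pairs of members had Pearson correlations of log2 CPM from 0.852 to 0.996 and Spearman correlations from 0.881 to 1. These describe 12 libraries that share depth, scaling and sample composition with every gene, and they carry no test.

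Because the members moved together from library to library, the sequences just upstream of their starts were examined. RefSeq promoters of the GRCr8 build were on hand for 7 of the 9 members. SREBP-2 is known to act on genes of this route together with NF-Y, which binds the CCAAT box, and with Sp1, which binds the GC box. In the 250 bases before the start, the letters CCAAT were found on either strand in 5 of 7 (Hmgcs1, Mvk, Mvd, Idi1 and Fdps), while 34% of 33469 rat promoters of that length hold them. The 5 are printed because they carry that motif. They are the 180 bases before the start, 5′ to 3′ on the gene's own strand, with CCAAT or its reverse complement ATTGG in capitals. The windows are chr2:53382124-53382303 (plus strand) for Hmgcs1, chr12:47819504-47819683 (minus strand) for Mvk, chr19:67414975-67415154 (minus strand) for Mvd, chr17:66547525-66547704 (minus strand) for Idi1 and chr2:176804817-176804996 (minus strand) for Fdps.
Hmgcs1: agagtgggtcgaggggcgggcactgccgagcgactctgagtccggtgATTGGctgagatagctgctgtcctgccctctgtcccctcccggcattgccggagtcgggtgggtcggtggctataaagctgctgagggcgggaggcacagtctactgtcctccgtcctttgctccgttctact
Mvk: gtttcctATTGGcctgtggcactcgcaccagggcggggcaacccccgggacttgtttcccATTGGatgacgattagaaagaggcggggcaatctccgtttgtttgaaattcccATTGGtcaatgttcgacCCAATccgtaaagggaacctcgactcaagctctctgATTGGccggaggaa
Mvd: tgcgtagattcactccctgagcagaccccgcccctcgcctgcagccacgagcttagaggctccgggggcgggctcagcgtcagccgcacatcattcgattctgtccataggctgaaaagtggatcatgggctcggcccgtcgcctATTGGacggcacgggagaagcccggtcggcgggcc
Idi1: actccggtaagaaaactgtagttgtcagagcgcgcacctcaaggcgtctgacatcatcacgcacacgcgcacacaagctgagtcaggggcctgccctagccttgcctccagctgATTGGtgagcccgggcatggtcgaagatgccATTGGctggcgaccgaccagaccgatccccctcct
Fdps: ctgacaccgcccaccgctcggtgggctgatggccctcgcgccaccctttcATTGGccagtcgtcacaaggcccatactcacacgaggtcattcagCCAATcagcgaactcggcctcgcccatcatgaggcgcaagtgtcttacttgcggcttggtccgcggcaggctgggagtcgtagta
The Mvk window held 5 CCAAT boxes, more than any other of the 7, and Mvk had the smallest range of CPM across libraries. Aacs and Acat2 held 0, and their highest CPM exceeded the lowest 101-fold and 16.5-fold. Fdps and Idi1 had 2 each and Mvd 1, and their highest CPM exceeded the lowest 13.8-fold, 64.5-fold and 16.1-fold. Hmgcs1 had 2 within 250 bases, the farther one at 184 to 188 bases before the start and so outside the printed stretch. Its range was 26.7-fold, so Idi1 and Hmgcs1, which hold boxes, ranged more widely than Acat2, which holds 0. Whether the number of boxes goes with the size of the range was not tested. The GC box GGGCGG was found on either strand in 5 of 7 (Acat2, Hmgcs1, Mvk, Mvd and Fdps), against 30.5% of promoters. The sterol regulatory element consensus TCACNCCAC was found on neither strand in any of the 7, against 0.974% of promoters. These are matches of letters, and absence of a match says only that those letters are not in the window.

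High fat feeding was compared with normal diet in the absence and in the presence of SAMC. In HFD against Control all 9 transcripts had lower fitted levels in HFD, with a median log2 fold change of -2.26 and a range from -3.90 (Aacs) to -1.13 (Mvk). The median over all tested genes was near 0 in this and every other contrast. In edgeR's quasi-likelihood test, adjusted over 15916 genes by Benjamini-Hochberg, 0 of 9 passed 0.05, against 0.145% of all genes. DESeq2, run as an alternative, called 6 (Aacs, Hmgcs1, Pmvk, Idi1, Fdps and Fdft1), against 2.07% of genes. The adjusted p ran from 0.098 (Fdps) to 0.359 (Mvk). Before adjustment, p was under 0.05 for all 9, against 4.76% of genes that were lower at that level. The members rose and fell together (pairwise Pearson correlations from 0.852 to 0.996), so counts of members here and below are not independent observations. The HFD libraries lay below all Control libraries in scaled CPM for 8 members, against 6.44% of genes, and overlapped for Acat2. For Hmgcs1, Mvk, Mvd, Idi1 and Fdft1 this rested on the scaling. In RPKM, HFD replicate 3 lay above Control replicate 1 for each of them, as with Hmgcs1 at 55.6 against 50.2. Even in scaled CPM the margin was narrow for Mvd, at 14.57 in HFD replicate 3 and 14.64 in Control replicate 1. The Fdps difference was -2.33 ± 0.45 (SE) on the log2 scale, a 5.03-fold lower level, and that of Hmgcs1 was -2.63 ± 0.73. Without Control replicate 2 the median was -1.02 with 0 calls by edgeR, against 0.0851% of genes, and without Control replicate 1 it was -2.68 with 2 calls, Pmvk and Fdps, against 0.324%. Control replicate 2 is singled out here and below because its member levels stood far above those of the other Control libraries. Calls made without it follow a choice made on the tested values and are no separate support.

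In HFD+SAMC against Control+SAMC all 9 were again lower in the high fat group, with a median log2 fold change of -1.93 and a range from -3.74 (Aacs) to -0.81 (Pmvk). The count past the adjusted threshold was 0 of 9, against 0.0628% of genes, with adjusted p from 0.238 to 0.493 by the same test, while DESeq2 called 3 (Aacs, Fdps and Fdft1), against 1.71%. Before adjustment, p was under 0.05 for 8, all lower, against 5.26% of genes. The HFD+SAMC libraries lay below all Control+SAMC libraries for all 9 members, against 8.54% of genes. Aacs differed 13.4-fold here, at -3.74 ± 1.09, with an interval (95%) from -6.18 to -1.30, and Pmvk 1.75-fold, at -0.81 ± 0.39, with an interval from -1.67 to 0.05. With the 6 libraries of these groups fitted alone, 6 of 9 passed the threshold, against 0.291% of genes, and without Control replicate 2, which is in neither group but adds to the spread shared by the fit, 4 did, against 0.274% (Aacs, Hmgcs1, Mvk and Fdps).

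Averaged over the SAMC and no-SAMC arms, the diet difference had a median of -2.03 over the members. Fdps passed, at -1.98 ± 0.32 and a 3.94-fold lower level in the high fat groups (adjusted p = 0.0246, edgeR). It was the 1 member called, against 0.421% of genes, or 0.182% called lower. The other 8 had adjusted p from 0.0809 (Fdft1, -1.85 ± 0.38) to 0.127 (Mvk, -1.14 ± 0.29). Leaving out Control replicate 2 gave 5 calls, against 0.59% of genes: Aacs, Hmgcs1, Pmvk, Fdps and Fdft1, with Fdps at -1.57 ± 0.18 (adjusted p = 0.00462, edgeR). Leaving out Control replicate 1 gave 7, against 0.794% of genes, but leaving out any 1 of the 9 libraries of the other groups gave 0, against 0.184% to 0.408% of genes, where the adjusted p of Fdps by edgeR reached at most 0.0866. Without the filter on low counts 0 members passed, against 0.258%, while DESeq2 called all 9, against 3.39%.

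**Figure D2:**
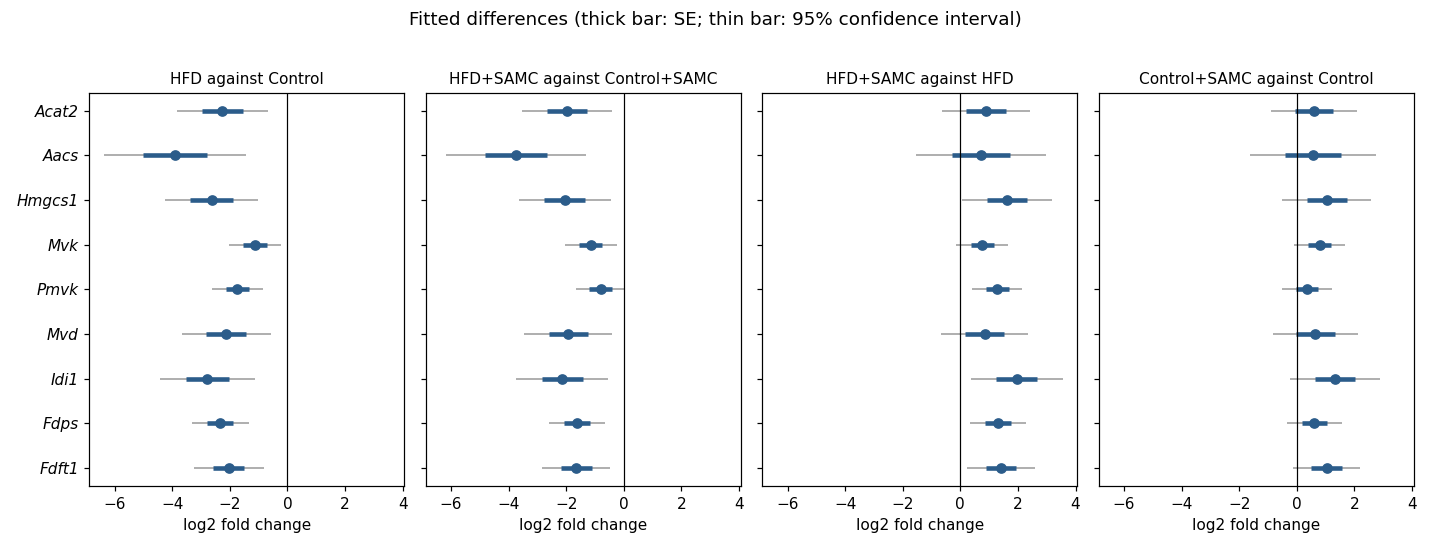
Log2 fold change of each member (horizontal axis) in 4 comparisons of 2 groups; points are fitted values, thick bars the SE and thin bars the 95% confidence interval. The diet panels lie left of 0, from -3.90 to -0.81, and the SAMC panels lie right of 0 with most intervals reaching across it.

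SAMC was compared with no SAMC on each diet. In HFD+SAMC against HFD all 9 transcripts had higher fitted levels in HFD+SAMC, with a median log2 fold change of 1.28 and a range from 0.71 (Aacs) to 1.96 (Idi1). The count called was 0 of 9, against 0.0503% of genes, with adjusted p from 0.316 (Pmvk) to 0.85 (Aacs) by edgeR, and 0 by DESeq2, against 1.6%. Before adjustment, p was under 0.05 for 5 (Hmgcs1, Pmvk, Idi1, Fdps and Fdft1), against 5.28% of genes that were higher at that level. For these and Mvk, 6 in all, every HFD+SAMC library lay above every HFD library, against 9.4% of genes. Pmvk was 2.42-fold higher, at 1.28 ± 0.40, and Idi1 3.88-fold, at 1.96 ± 0.72. The acetoacetyl-CoA suppliers Acat2 and Aacs and the decarboxylase Mvd were the 3 whose libraries overlapped. Leaving out Control replicate 2 brought 1 member, Pmvk, past the threshold at 1.27 ± 0.19 (adjusted p = 0.0286, edgeR), against 0.164% of genes.

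In Control+SAMC against Control the fitted differences were smaller, with a median of 0.65 and a range from 0.35 (Pmvk) to 1.31 (Idi1). The count called was 0 of 9, against 0.119% of genes, with adjusted p from 0.568 to 0.917 by edgeR, and 0 by DESeq2, against 1.38%. The p before adjustment was under 0.05 for 0 of 9, against 5.18% of genes that were higher at that level. Idi1 was the 1 member whose Control+SAMC libraries all lay above the Control libraries, against 7.03% of genes. The value depended on single Control libraries. Without replicate 2 the median was 2.05, and 1 member, Mvk, passed the threshold at 1.59 ± 0.23 (adjusted p = 0.047, edgeR), against 0.0486% of genes, while without Control replicate 1 the median was 0.25. Averaged over both diets, SAMC groups were higher by a median of 0.81 (0.63 for Aacs to 1.63 for Idi1), with 0 of 9 called by edgeR, against 0.22% of genes, and adjusted p from 0.235 to 0.771. DESeq2 called 2, Fdps and Fdft1, against 2.75%. Before adjustment, p was under 0.05 for 6, against 6.31% of genes that were higher at that level. Without Control replicate 2 the median was 1.47 and 5 members passed, against 0.413% of genes: Hmgcs1 at 2.13 ± 0.25, Mvk at 1.18 ± 0.15, Pmvk at 1.20 ± 0.14, Fdps at 1.36 ± 0.19 and Fdft1 at 1.73 ± 0.23 (adjusted p from 0.00608 to 0.0138, edgeR). That library had the highest level of every member among the libraries without SAMC, so leaving it out was bound to raise this difference.

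The other 2 comparisons change both diet and SAMC, and each stays within 1 of 2 sets of libraries that differ in the deposited RPKM of 1 gene. For that gene, RGD1562465, the RPKM implies a length of 3377 bp in the HFD+SAMC and Control libraries and 4432 bp in the HFD and Control+SAMC libraries. The length used for that gene thus differed between the sets, and the labels do not say why. Each of the 4 comparisons above between 2 groups crosses these sets, the 2 averages weigh them equally, and the interaction of diet and SAMC cannot be told apart from them. Whether the sets differ in anything beyond that length was not tested.

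Within the set that holds both, HFD against Control+SAMC gave the widest separation of the contrasts examined. All 9 members were lower in HFD, with a median log2 fold change of -2.93 and a range from -4.45 (Aacs) to -1.92 (Mvk). Fdps fell, at -2.93 ± 0.47 and a 7.63-fold lower level (adjusted p = 0.0306, edgeR), the 1 member called, against 0.364% of genes, or 0.22% called lower. Fdft1 was next at -3.07 ± 0.57 with an adjusted p of 0.0523, and the other 7 ran from 0.0626 (Pmvk) to 0.141 by the same test. Before adjustment, p was under 0.05 for all 9, against 5.9% of genes that were lower at that level. Every HFD library lay below every Control+SAMC library for all 9, against 8.33% of genes. Idi1 averaged 10.2 ± 6.5 CPM in HFD and 175 ± 25 CPM in Control+SAMC (SD, n = 3 each). Without Control replicate 2 all 9 passed, against 0.851% of genes, and without Control replicate 1 there were 5, against 0.562%. Leaving out any 1 Control+SAMC or HFD library, or HFD+SAMC replicate 1 or 2, left 0 calls by edgeR, against 0.0307% to 0.335% of genes. Without the filter on low counts 0 passed, against 0.219%, DESeq2 called all 9, against 3.57%, and with these 6 libraries fitted alone 7 did, against 0.509% of genes.

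Within the other set, HFD+SAMC against Control gave a median of -1.02, from -3.19 (Aacs) to -0.36 (Mvk), with 0 of 9 called against 0.176% of genes and adjusted p from 0.266 to 0.776 by edgeR, while DESeq2 called 1, Aacs, against 2.92%. Before adjustment, p was under 0.05 for 2, Aacs and Fdps, against 5.98% of genes that were lower at that level. The libraries of these groups overlapped for all 9. Without Control replicate 2 the median was 0.23 and 7 members changed sign, with Hmgcs1 at 0.58 ± 0.36 and Fdft1 at 0.38 ± 0.33, while Fdps (-0.22 ± 0.27) and Aacs (-0.75 ± 0.59) stayed below 0. The direction between these groups therefore rested on that library. The interaction had a median of 0.38 over the members, with 0 of 9 called against 0.145% of genes, 0 with p under 0.05 before adjustment, against 7.41%, and adjusted p from 0.765 to 0.997 by edgeR, and 0 called by DESeq2, against 0.807%. Without Control replicate 2 that median was -0.83, so its direction also changed with that library left out. For Pmvk it was 0.93 with an interval (95%) from -0.29 to 2.15, so that neither a larger nor a smaller SAMC difference on the high fat diet was resolved.

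**Figure D3:**
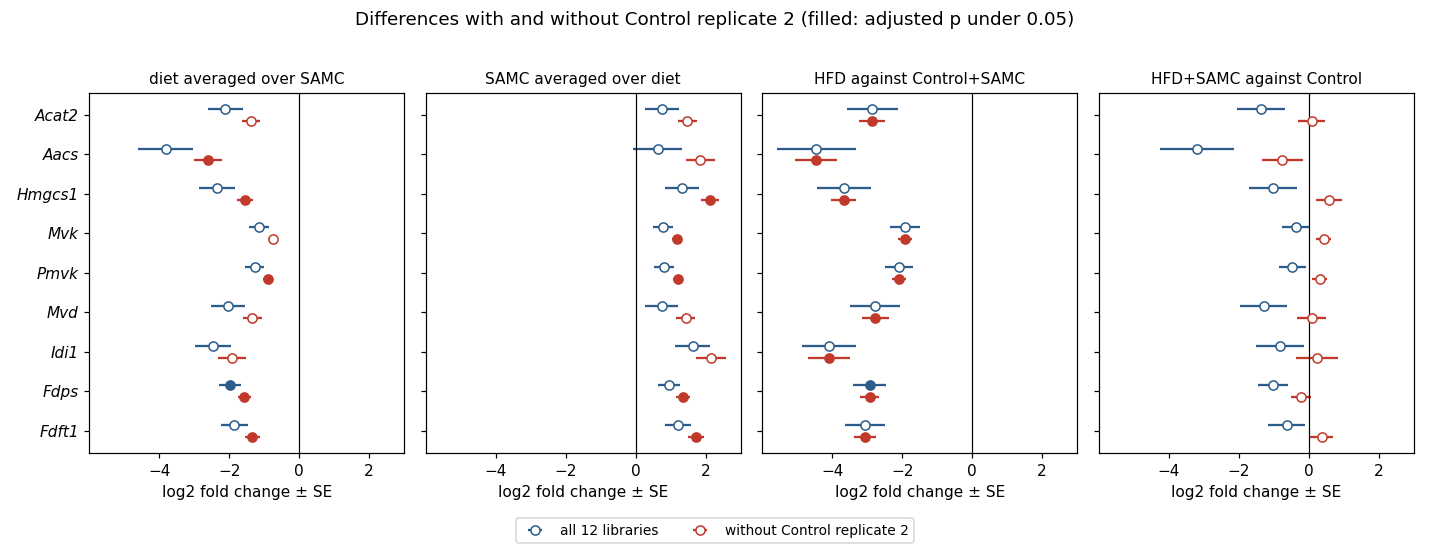
Log2 fold change ± SE of each member in 4 comparisons, fitted with all 12 libraries (blue) and without Control replicate 2 (red); filled points have an adjusted p under 0.05. In HFD against Control+SAMC the values hardly move but all 9 points are filled without that library, while in HFD+SAMC against Control 7 members cross 0. That library was picked for its member levels, so the filled red points are no separate support.

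Control replicate 2 and 3 other libraries also stood apart in transcripts outside the pathway. Fga, the fibrinogen alpha chain, had 3378 to 3822 CPM in HFD replicates 2 and 3, Control+SAMC replicate 1 and Control replicate 2, against 8221 to 18523 CPM in the remaining 8. In the HFD, Control+SAMC and Control groups, the library with the lowest Fga had the highest summed level of the 9 members (400.4, 3422 and 3349 CPM). In HFD+SAMC, Fga was at 8221, 10748 and 12892 CPM and the members summed to 790.4, 943 and 615 CPM. Without those 4 libraries, which leaves HFD with 1 library that is assumed to vary like the others, the members' median was -1.64 in HFD against Control, 1.52 in HFD+SAMC against HFD, 1.82 in Control+SAMC against Control, and -1.58 and 1.59 for the diet and SAMC averages. That fit called 4 members for the diet average and 5 for the SAMC average, against 0.181% and 0.246% of genes.

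Markers of the tissue and of other cells were read beside these results. The 7 hepatocyte markers, Alb among them, were all detected and summed to 122887 to 144837 CPM in HFD+SAMC, 116134 to 155084 CPM in HFD, 141804 to 207490 CPM in Control+SAMC and 131673 to 350264 CPM in Control, with the highest value in Control replicate 2. Alb took 21.8% of counts there and 7.32% to 16.3% in the other 11. The 8 Kupffer cell and macrophage markers summed to 551 to 660 CPM in HFD+SAMC, 656 to 785 CPM in HFD, 484 to 617 CPM in Control+SAMC and 395 to 659 CPM in Control. The 4 cholangiocyte markers summed to 14.5 to 16.9 CPM in HFD+SAMC, 7.52 to 10.3 CPM in HFD, 13.1 to 15.7 CPM in Control+SAMC and 5.36 to 12.96 CPM in Control. Their sums were lower in HFD than in either SAMC group. Unlike the members, these 4 markers all had a positive diet average (median 0.17), with 0 called by edgeR. The 5 stellate cell and fibroblast markers summed to 25.1 to 109 CPM in HFD+SAMC, 27.8 to 45.6 CPM in HFD, 28.8 to 37.5 CPM in Control+SAMC and 25.9 to 40.8 CPM in Control. Skeletal muscle transcripts such as Acta1 (440 CPM) were present in HFD+SAMC replicate 3 and nearly absent elsewhere (at most 0.135 CPM). The 4 erythroid markers summed to 231 to 470.5 CPM in HFD+SAMC, 267 to 365 CPM in HFD, 346 to 1302 CPM in Control+SAMC and 391.6 to 659.7 CPM in Control. All 4 had a negative diet average (median -0.997), as had all 7 hepatocyte markers (median -0.45), with 0 called by edgeR in either list. The 8 Kupffer cell and macrophage markers all had a positive one (median 0.39), again with 0 called. The 5 sinusoidal endothelial markers summed to 236 to 291 CPM in HFD+SAMC, 237 to 249.7 CPM in HFD, 201 to 303 CPM in Control+SAMC and 280.4 to 308 CPM in Control. Of these 5, 3 had a negative SAMC average and 1, Clec4g, was called lower, against 0.22% of genes called. The 5 T and NK cell markers, 4 of them tested, summed to 2.02 to 2.85 CPM in HFD+SAMC, 3.39 to 4.21 CPM in HFD, 1.10 to 2.72 CPM in Control+SAMC and 2.42 to 3.84 CPM in Control. The part of these cell types in the members' levels was not tested.

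Other genes of the route and its regulators were read from 6 lists. Of the 12 enzymes after squalene, all had a negative diet average, with a median of -1.61, and 2 were called, against 0.421% of genes. Among those called was Cyp51 (lanosterol demethylase), which fell by 1.97 ± 0.29 on the log2 scale (adjusted p = 0.0168, edgeR). Cyp51 had 277, 340.2 and 229 CPM in HFD+SAMC, 83.2, 117 and 65.6 CPM in HFD, 710.0, 802 and 772 CPM in Control+SAMC, and 212, 859 and 439 CPM in Control. Sqle, which oxidises the squalene that Fdft1 makes, had 43.4, 47.7 and 35.7 CPM in HFD+SAMC, 11.9, 15.4 and 6.72 CPM in HFD, 183, 130.5 and 141 CPM in Control+SAMC, and 24.6, 148 and 40.3 CPM in Control. In HFD against Control+SAMC all 12 were lower in HFD, and 4 were called, against 0.364% of genes. Those 4 included Sqle (-3.74 ± 0.62), Cyp51 (-3.10 ± 0.43) and Dhcr7 (-2.89 ± 0.48). Of 13 tested genes of sterol control and uptake, 10 had a negative diet average and 3 were called lower, against 0.421% of genes called. Among those 3 were Insig1 (-2.95 ± 0.45), which retains the SREBP complex, and Tmem97 (-1.48 ± 0.14). Tmem97, the sigma-2 receptor, was the 1 gene of the 6 lists called in HFD+SAMC against HFD, higher by 1.51 ± 0.19 (adjusted p = 0.0191, edgeR). Its level there was 45.1, 52.3 and 55.1 CPM in HFD+SAMC and 19.8, 15.8 and 17.8 CPM in HFD. Srebf2 itself had 112, 128 and 105 CPM in HFD+SAMC, 70.6, 77.7 and 57.8 CPM in HFD, 177, 160.1 and 164 CPM in Control+SAMC, and 104.5, 217 and 107 CPM in Control, the same order as the members over a narrower range.

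The 16 genes that draw on isoprenoids for ubiquinone, dolichol and prenylation had a median diet average of -0.0008, with 9 below 0 and 0 called. Ggps1, which extends farnesyl diphosphate for prenylation, had 4.99 to 5.26 CPM in HFD+SAMC, 4.48 to 5.45 CPM in HFD, 5.36 to 5.40 CPM in Control+SAMC and 4.72 to 5.67 CPM in Control. The 8 ketone body and mitochondrial genes had a median of 0.35, all above 0, with 0 called. Acat1, the mitochondrial counterpart of Acat2, had 217, 144 and 187 CPM in HFD+SAMC, 212, 142 and 171 CPM in HFD, 138, 134 and 122 CPM in Control+SAMC, and 152, 174 and 145 CPM in Control. Its diet average was 0.32 ± 0.13 (adjusted p = 0.29, edgeR), against -2.11 ± 0.50 for Acat2. Of 6 genes of cytosolic acetyl-CoA supply, 4 had a negative diet average. The citrate carrier Slc25a1 was the 1 called (-0.72 ± 0.12, adjusted p = 0.0284, edgeR), against 0.421% of genes. Of 11 lipogenesis genes, all had a negative diet average, with a median of -1.16, and Scd was the 1 called (-6.02 ± 0.82, adjusted p = 0.0175, edgeR).

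**Figure D4:**
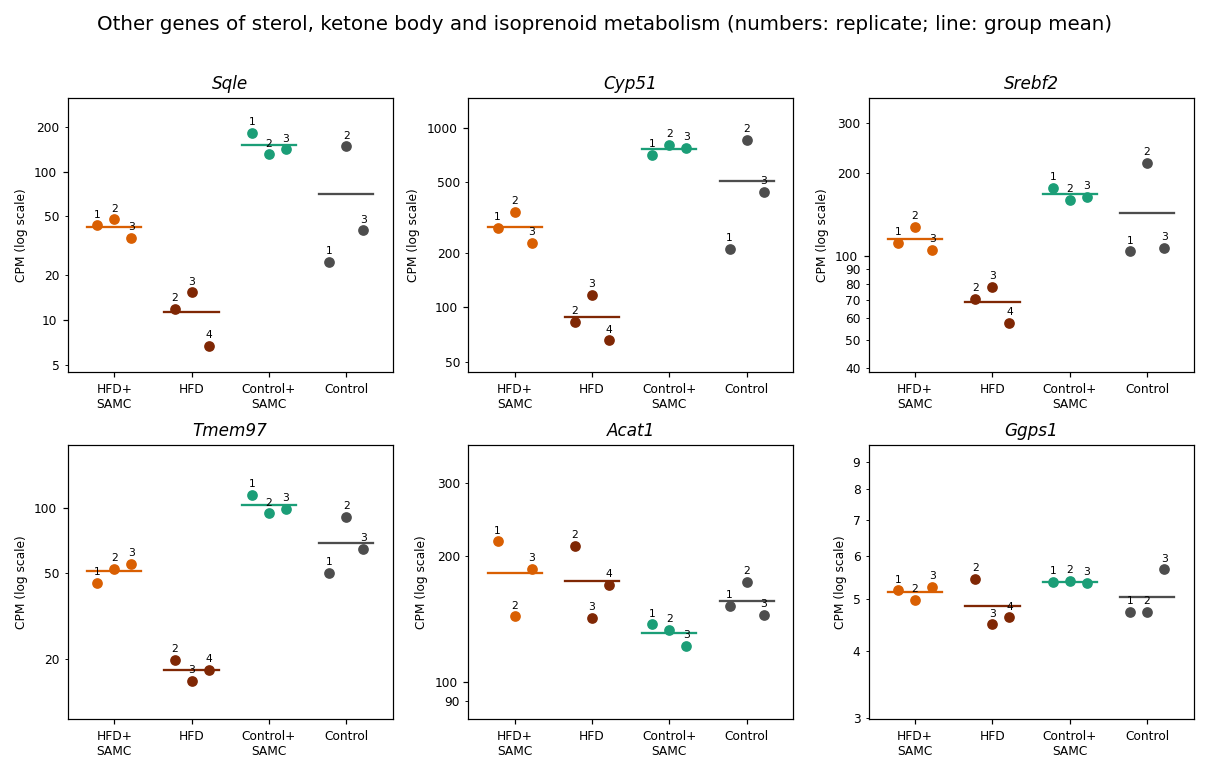
CPM in each library, on a log scale that differs between panels, of Sqle, Cyp51 and Srebf2 (top) and of Tmem97, Acat1 and Ggps1 (bottom), by group; points are libraries numbered by replicate and lines are group means. The top row shows the split of the Control libraries seen in the 9 members, the HFD points of Tmem97 (15.8 to 19.8 CPM) lie below all others, and Ggps1 varies only from 4.48 to 5.67 CPM.

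The genes whose pattern was most like that of the members were ranked by Pearson correlation with the mean standardised log2 CPM of the 9 over the 12 libraries, among the 10141 genes whose mean log2 CPM reached 1. The leading 10 were Msmo1 (0.992), Sqle (0.987), Hsd17b7 (0.981), Insig1 (0.976), Srebf2 (0.976), Sc5d (0.974), Stard4 (0.968), Cyp51 (0.965), Nsdhl (0.962) and Mmab (0.962). Of these, 6 are enzymes after squalene and 3 belong to sterol control and uptake, while Mmab, which makes adenosylcobalamin, is on none of the lists. Without Control replicate 2 their correlations were 0.953 to 0.990. Mmab lies head to head with Mvk in the deposited table, whose build is not named there. Mvk covers chr12:47904266-47920457 on the minus strand and Mmab chr12:47920712-47935438 on the plus strand, 255 bp apart. Mmab had 8.86, 10.6 and 9.87 CPM in HFD+SAMC, 5.003, 5.74 and 2.83 CPM in HFD, 23.6, 18.0 and 13.6 CPM in Control+SAMC, and 5.07, 24.2 and 7.92 CPM in Control. The printed Mvk window, with its 5 CCAAT boxes, is the stretch that runs from the Mvk start towards Mmab.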

How the data were processed

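Per the labels' protocols, ribosomal RNA was removed from total liver RNA, paired reads were aligned with HISAT2, and the authors made the deposited counts per gene with HTSeq. Trimmomatic 0.36 was used, per the submitters' processing notes. The sources used here give no genome build, annotation or strand setting, so reads of overlapping or antisense genes may not be told apart. The deposited RPKM matched counts divided by gene length and by library total for every gene except 1 (relative tolerance 1e-06). The deposited gene lengths, a unit apart from counts and RPKM, and coordinates are those of the authors' table.

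Libraries held 45680738 to 61937544 counts. The filterByExpr function kept 15916 of 40154 genes (14180 had no count), which held 99.96% of counts. In R 4.3.3, edgeR 4.0.16 fitted all 12 libraries in 1 robust quasi-likelihood model with TMM scaling (8 residual degrees of freedom, common biological coefficient of variation 0.299). Contrasts were 6 between groups, the averages over each arm and the interaction, two-sided, adjusted by Benjamini-Hochberg within each at 0.05. Log2 CPM used a prior count of 0.5. Within groups, library pairs gave chi-square values of 87.2 to 650.5 for each degree of freedom, so none was a repeat within sampling noise. Replicate numbers did not pair the samples: over 15 same-numbered pairs the correlations of deviations ran from -0.187 to 0.216, with 2 over 0.1. DESeq2 1.42.0 and the other alternatives are in the closing section. The model was also run on simulated counts, drawn independently with the same spread in every group. That run did not cover a Control group with a wider spread, and its outcome is not given here. The members, lists and contrasts were chosen with earlier results of these data known. Named genes are the members, companions listed with them, the called genes of the lists and the 10 genes most similar to the members whose symbols do not start with LOC or RGD. Acat2l1 and RGD1562465 are named for technical reasons, after their values were seen. Some genes of the route and of the lists are not reported here. Promoters are RefSeq's (GRCr8), for 7 of 9 members, and motifs were searched on both strands in 250 bases.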

Additional observations from a re-analysis of the deposited data

How the results depend on the processing

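All directions held under every alternative run except in HFD+SAMC against Control and in the interaction, whose median was -0.83 without Control replicate 2, -0.08 with the replicate block and -0.06 without the 4 low-fibrinogen libraries. Of 1350 values of single members in the 8 contrasts other than the interaction, 1216 kept direction and side of the threshold, 99 newly passed, 21 no longer passed and 14 changed sign. Sign changes without Control replicate 2 were 0.084 (Acat2), 0.58 (Hmgcs1), 0.43 (Mvk), 0.32 (Pmvk), 0.084 (Mvd), 0.23 (Idi1) and 0.38 (Fdft1). Without the 4 low-fibrinogen libraries the values for these 7, given in the same order, were 0.093, 0.59, 0.44, 0.32, 0.092, 0.24 and 0.39. The median of that contrast then was 0.24, and that of Control+SAMC against Control 1.82.

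In HFD+SAMC against Control, leaving out Control replicate 1 gave the same 7 members their lowest values, -1.84, -1.49, -0.68, -0.81, -1.71, -1.29 and -1.03. Leaving out 1 library gave medians of -2.68 to -1.02 in HFD against Control, 1.10 to 1.44 in HFD+SAMC against HFD, 0.25 to 2.05 in Control+SAMC against Control, -2.09 to -1.54 in HFD+SAMC against Control+SAMC, -2.25 to -1.39 for the diet average, 0.64 to 1.47 for the SAMC average, -1.38 to 0.23 in HFD+SAMC against Control, -3.29 to -2.73 in HFD against Control+SAMC and -0.83 to 0.82 for the interaction. Members called were 0 to 2, 0 to 1, 0 to 1, 0 to 4, 0 to 7, 0 to 5, 0 to 0, 0 to 9 and 0 to 0, in that order of contrasts. Over all genes the counts called moved too, with 16285 to 16453 genes tested. They were 4 to 53, 1 to 27, 3 to 23, 1 to 45, 30 to 130, 13 to 68, 7 to 53, 5 to 140 and 7 to 19, in the same order.

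DESeq2 called 6 members in HFD against Control (2.07% of all genes), 3 in HFD+SAMC against Control+SAMC (1.71%), 9 for the diet average (3.39%), 2 for the SAMC average (2.75%), 1 in HFD+SAMC against Control (2.92%), 9 in HFD against Control+SAMC (3.57%) and 0 in the others. Scaling by library totals alone called 4 for the diet average (3.6% of genes) and 3 in HFD against Control+SAMC (0.798%), and it moved the median of all genes by up to 0.288 (HFD against Control). No low-count filter gave 0 in both (0.258% and 0.219% of genes), and so did the replicate block (0.333% and 0.258%). That block, over numbers that the labels do not say pair the samples, changed no other count. Only the groups compared gave 6 in HFD+SAMC against Control+SAMC (0.291% of genes) and 7 in HFD against Control+SAMC (0.509%). Without the 4 low-fibrinogen libraries there were 4 in Control+SAMC against Control (0.129% of genes), 3 in HFD+SAMC against Control+SAMC (0.146%), 4 for the diet average (0.181%), 5 for the SAMC average (0.246%) and 5 in HFD against Control+SAMC (0.181%). The cause of these shifts was not tested. Each member had at least 75 counts in every library.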
